A study of Mus musculus with 24 samples.

Results

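The inflammatory and regulatory cytokines outside the IL-1 family were followed in mouse bone marrow-derived macrophages. The members were the genes Tnf, Il6, Il10, Il12a, Il12b, Il15, Il23a, Osm and Lif, chosen by symbol, and every probe set annotated to only 1 of these symbols was taken. This gave 9 genes of 18193 named on the arrays and 11 probe sets of 45037, since Il12b and Lif have 2 probe sets each. All 11 passed the filter on deposited ratios described below, as did 43349 probe sets in all. These ratios give no brightness, so passing it does not show that a gene was expressed.

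Total RNA of 24 cultures was hybridized to Affymetrix mouse arrays, 1 array per culture, in 8 groups of 3. Marrow of 6 C57Bl/6 mice was cultured over 10 days with M-CSF at 20 ng/ml, which turns marrow progenitors into macrophages. The 4 groups of each genotype were a control without IL-4 and a culture with 20 ng/ml IL-4, each with vehicle (DMSO and ethanol) or with rosiglitazone (RSG) at 1 µM, a drug that activates PPARγ. The Pparg+/- LysCre animals are numbered 1 to 3 and the Pparg fl/- LysCre animals 4 to 6, and all 4 groups of a genotype were grown from the same 3 animals. Both genotypes lack 1 Pparg allele and carry LysCre, which places Cre recombinase in the lysozyme gene that myeloid cells use. The other allele is intact in Pparg+/- cells and floxed in Pparg fl/- cells, and no group had 2 intact alleles. Values are the deposited ratios, in which 1 is the median of the probe set over the arrays for most probe sets. A ratio gives no brightness, so the levels of different genes cannot be set against each other, and whether a gene was expressed at all cannot be read from it, which holds for the macrophage markers too. In each group the values below are given in the order of the mice.

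A few facts of the whole series touch these genes. The Pparg probe set 1420715_a_at was not lower in Pparg fl/- cells, with mean ratios of 0.79 ± 0.267 (SD, n = 3) against 0.549 ± 0.0349 in vehicle controls and 2.64 ± 0.689 against 1.73 ± 0.282 with IL-4 and vehicle, and its position relative to the floxed part is not given in the sources used here, so it does not check the deletion. Lyz2, the lysozyme gene that carries LysCre, stood apart by mouse: the 4 arrays of mouse 2 lay between 18.4 and 21.6 and those of mouse 4 between 16.6 and 21.3, while no array of mice 1, 3, 5 and 6 exceeded 1.15. Results are therefore also given without mice 2 and 4, a setting that leaves 2 mice per genotype. The counts of genes in this paragraph are of genes called by the rule given below. Of the alternative activation markers, 5 of 6 were called higher with IL-4 in every comparison. Mrc1 rose by less than 1.5-fold with vehicle. Its mean ratios went from 0.82 to 1.14 in Pparg+/- cells and from 0.899 to 1.14 in Pparg fl/- cells. The neutrophil marker list (9 genes tested) had a mean log2 ratio of 0.53 to 1.47 on the arrays without IL-4 and of -3.58 to -2.63 on those with IL-4, and 6 or 7 of its genes fell in each comparison. The stromal list (8 genes) lay at -0.14 to 1.95 without IL-4 and at -1.34 to -0.62 with IL-4, and 3 of its genes fell in each. The macrophage list (8 genes) lay at 0.06 to 0.67 without IL-4 and at -0.45 to 0.47 with IL-4, with 1 gene called higher and 3 called lower on average. It holds Lyz2, and its other 7 genes lay at -0.02 to 0.43 and at -0.4 to 0.08. On average over genotype and RSG, 1 of 8 T and NK cell markers rose, 2 of 5 B cell markers fell, 3 of 6 dendritic cell markers rose with 1 lower, and the list for mast cells and basophils (7 genes) had 2 higher and 1 lower. In bulk RNA, fewer cells of a type and less RNA per cell cannot be told apart, and the part of these other cells in the changes below was not tested.

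Tumour necrosis factor and IL-6 are the classical products of macrophages that meet microbes. IL-12 and IL-23 share the subunit p40, encoded by Il12b, which pairs with p35 (Il12a) in IL-12 and with p19 (Il23a) in IL-23, and both instruct T cells. IL-10 restrains all of these. Oncostatin M and LIF belong with IL-6 to the cytokines that signal through gp130, and IL-15 sustains NK cells and memory T cells. In resting macrophages most of these genes are kept low until a stimulus arrives through NF-kB, AP-1 and related factors. IL-4 drives macrophages to the alternative state, and PPARγ ligands have long been studied as brakes on inflammatory cytokine genes. No culture of this series received a microbial stimulus.

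Promoters were looked up in a RefSeq table (GRCm38.p6) that holds 250 bases before and 50 bases after each start, 32851 promoters in all. It held 6 promoters of 5 of the members (Tnf, Il6, Il12b, Lif and 2 of Il12a). The 3 printed here belong to the textbook inflammatory genes of the set, the ones a PPARγ ligand would be asked to lower, and capitals mark matches on either strand to the NF-kB consensus, to the AP-1-type motif TGANTCA and to TATAAA. Tnf lies at chr17:35201958-35202257 on the minus strand, Il6 at chr5:30012864-30013163 on the plus strand and Il12b at chr11:44399813-44400112 on the plus strand.
Tnf: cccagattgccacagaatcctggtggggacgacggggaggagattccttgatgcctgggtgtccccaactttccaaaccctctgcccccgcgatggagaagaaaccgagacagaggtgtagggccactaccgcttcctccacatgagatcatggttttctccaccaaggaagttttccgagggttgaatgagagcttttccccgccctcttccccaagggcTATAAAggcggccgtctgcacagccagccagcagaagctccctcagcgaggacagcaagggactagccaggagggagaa
Il6: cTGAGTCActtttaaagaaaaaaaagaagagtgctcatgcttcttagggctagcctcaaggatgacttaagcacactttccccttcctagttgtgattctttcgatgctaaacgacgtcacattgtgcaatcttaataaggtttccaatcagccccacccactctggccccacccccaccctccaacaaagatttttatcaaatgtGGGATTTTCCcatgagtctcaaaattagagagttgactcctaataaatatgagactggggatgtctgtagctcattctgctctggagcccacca
Il12b: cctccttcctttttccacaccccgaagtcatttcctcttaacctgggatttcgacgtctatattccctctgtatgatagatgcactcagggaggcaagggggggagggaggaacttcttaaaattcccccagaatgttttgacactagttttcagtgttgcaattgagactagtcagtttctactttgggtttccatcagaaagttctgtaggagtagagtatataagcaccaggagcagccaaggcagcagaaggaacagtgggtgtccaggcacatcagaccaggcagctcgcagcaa

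In the Tnf window TATAAA begins 29 bases before the start. The Il6 window holds TGAGTCA 249 bases and GGGATTTTCC 44 bases before the start. None of the 3 motifs was found in the Il12b window. Among all promoters of this length 8.46% held the NF-kB consensus, 7.81% TGANTCA and 13.6% TATAAA, and of the 6 member promoters 2 (Il6 and Lif) held the first, 2 (Il6 and Lif) the second and 1 (Tnf) the third. Motifs of the STAT type, TTC and GAA with 3 or 4 bases between them, were in 8.3% and 6.95% of promoters and in 0 and 2 of the member promoters (both of Il12a). The direct repeat of AGGTCA with 1 base between, to which PPAR binds with RXR, was in 0.0396% of promoters and in 0 of the 6. No match says only that these letters are not in this window.

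With IL-4, Il10 and Osm were called lower in both genotypes, though not in every comparison. Il15 was called lower only in Pparg+/- cells with vehicle. For Il12b, 1 probe set was called higher, only in Pparg fl/- cells with vehicle. Tnf, Il6, Il12a, Il23a and Lif were not called in any IL-4 comparison. Il10 fell 5.05-fold in Pparg+/- cells and 2.67-fold in Pparg fl/- cells with vehicle. Osm fell by 1.95- to 2.04-fold in 3 of the 4 comparisons. A probe set was called when it changed by at least 1.5-fold at an adjusted p under 0.05 in limma. In Pparg+/- cells with vehicle 3 of the 11 member probe sets were called, all lower (Il10, Osm and Il15), beside 13.4% of all probe sets, or 5.47% for lower ones alone. With vehicle in Pparg fl/- cells 2 were called, beside 14.8% of all. With RSG 1 was called in Pparg+/- cells, beside 11.6% of all, and 1 in Pparg fl/- cells, beside 13.3%. The median log2 change of the members was -0.44, -0.27, -0.2 and 0.15 in these 4 comparisons, where that of all probe sets was 0.1 to 0.12. Counting instead the probe sets whose 3 IL-4 arrays all lay below the 3 controls, there were 3, 2, 3 and 3 of 11, beside 12.5%, 12.0%, 13.1% and 12.6% of all probe sets. The vehicle and RSG comparisons of a genotype come from the same 3 mice. The methods' t-test with adjustment called none of the members in any of these 4 comparisons, beside 4.35% to 8.46% of all probe sets.

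**Figure D1:**
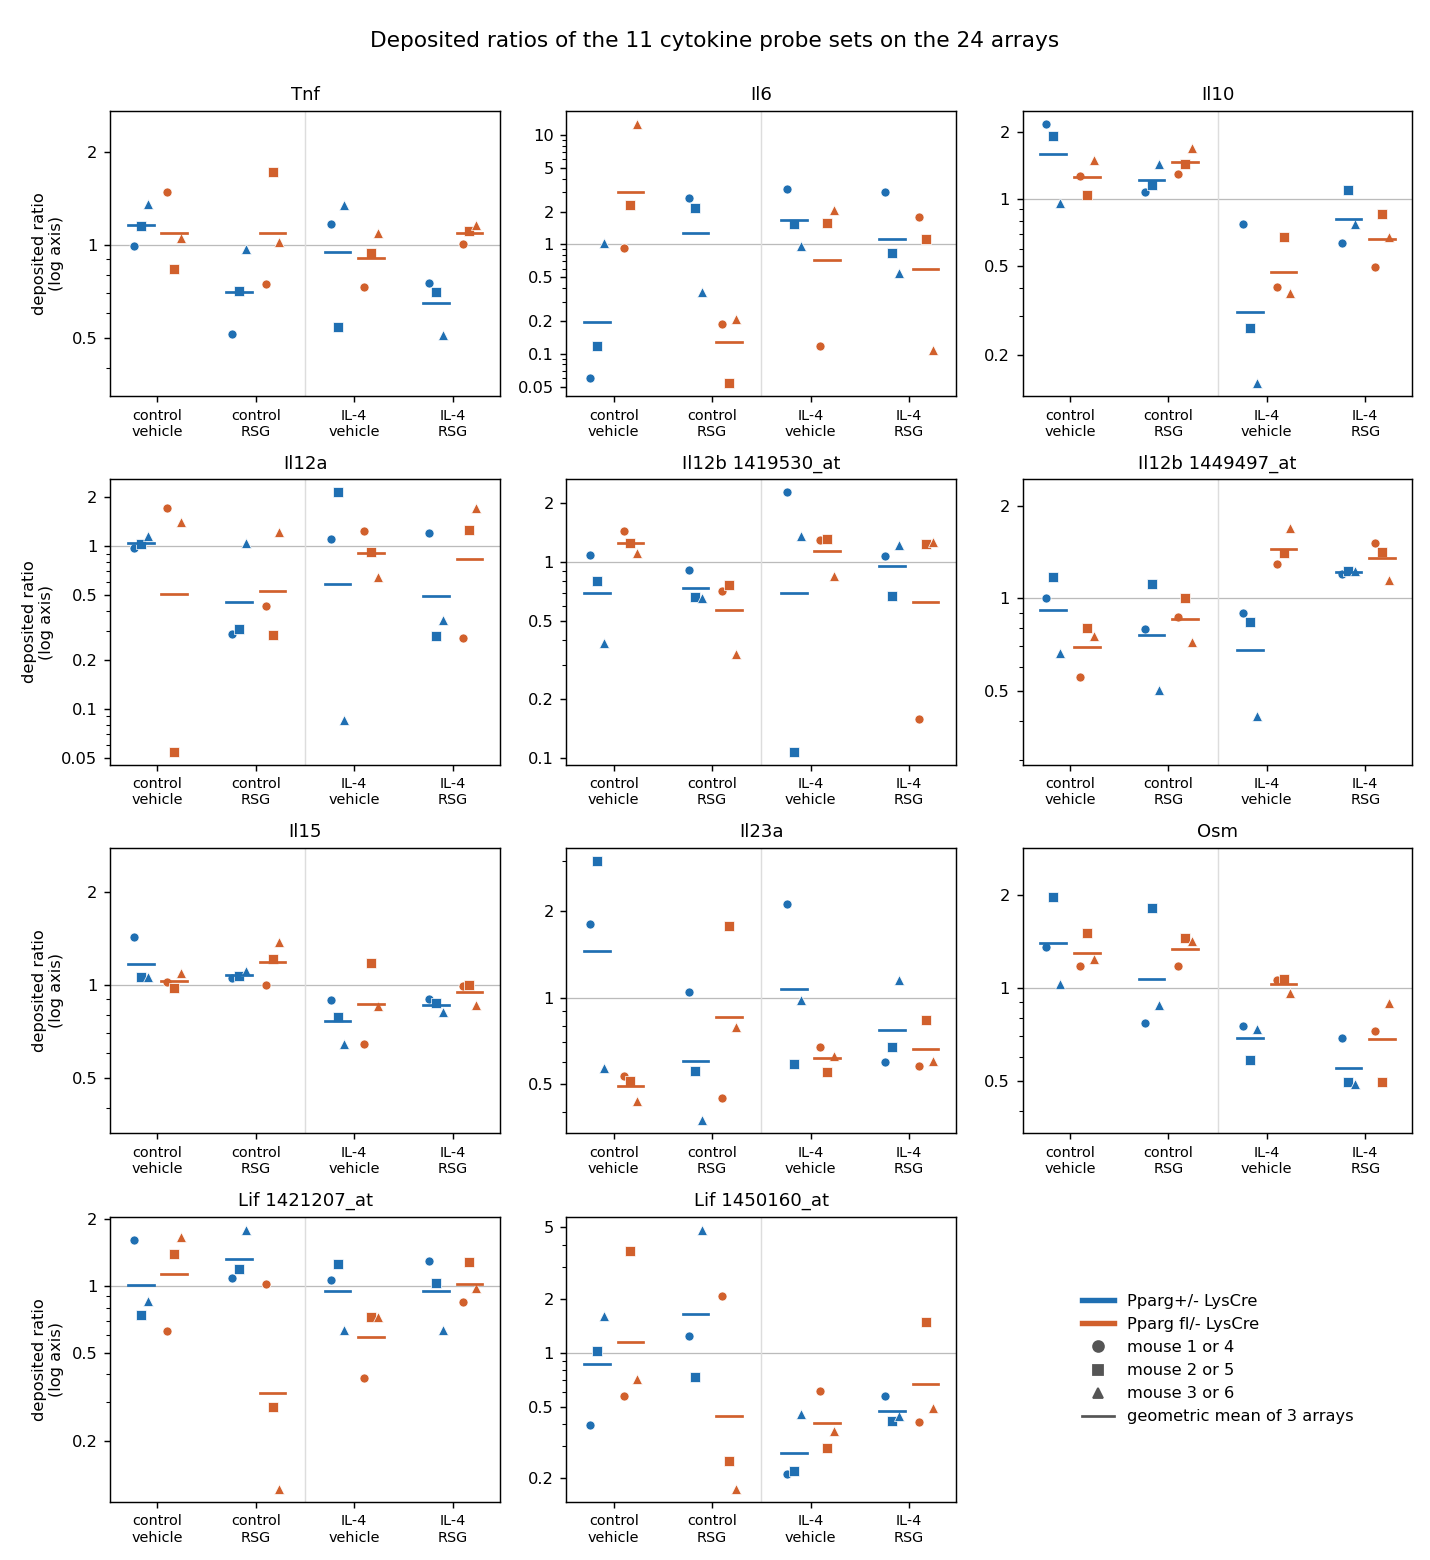
Deposited ratio (log axis) of the 11 cytokine probe sets in the 8 groups, 1 point per array and a bar at the mean of the 3 log2 ratios. Il10 and Osm sit lower with IL-4, while the points of Il6 and Il12a scatter by up to 17.7-fold and 31.4-fold within 1 group.

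Il10 encodes IL-10, through which macrophages limit inflammation. In Pparg+/- vehicle controls its ratios were 2.17, 1.91 and 0.957, and with IL-4 they were 0.773, 0.265 and 0.15. In Pparg fl/- cells they were 1.27, 1.04 and 1.49 in vehicle controls and 0.404, 0.679 and 0.379 with IL-4. In neither genotype did the arrays overlap, and Il10 was lower with IL-4 in all 6 mice. The log2 change was -2.34 ± 0.45 (SE, 95% interval -3.28 to -1.39, limma adjusted p = 0.000966) in Pparg+/- cells and -1.41 ± 0.45 (-2.36 to -0.47, adjusted p = 0.0324) in Pparg fl/- cells. With RSG the ratios of Pparg+/- cells went from 1.08, 1.15 and 1.44 to 0.637, 1.1 and 0.773, which overlap, and the change was -0.57 (adjusted p = 0.483). Those of Pparg fl/- cells with RSG went from 1.29, 1.43 and 1.7 to 0.497, 0.86 and 0.676, which do not overlap, with a change of -1.15 (adjusted p = 0.0915). Over genotype and RSG the averaged change was -1.37 ± 0.22, or 2.58-fold lower (adjusted p = 5.84e-05), and 11 of the 12 IL-4 arrays lay under the lowest of the 12 arrays without IL-4.

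In order of mean ratio the 8 groups of Il10 ran from Pparg+/- vehicle control (1.68 ± 0.638, SD) through Pparg fl/- RSG control (1.47), Pparg fl/- vehicle control (1.27) and Pparg+/- RSG control (1.22) to Pparg+/- IL-4 with RSG (0.838), Pparg fl/- IL-4 with RSG (0.678), Pparg fl/- IL-4 with vehicle (0.487) and Pparg+/- IL-4 with vehicle (0.396 ± 0.332). No neighbours in this order that were compared passed the test. The call in Pparg+/- cells held without any single mouse, at log2 changes of -2.76 to -2.08, but not without mice 2 and 4 (-2.08, adjusted p = 0.0739). The call in Pparg fl/- cells was lost without mouse 2 (-1.41, adjusted p = 0.0597), 4 (-1.3, 0.161), 5 (-1.81, 0.0577) or 6 (-1.13, 0.265), and without the IL-4 vehicle array of mouse 4 (-1.31, 0.0779) or the vehicle control array of mouse 6 (-1.29, 0.105). The averaged change was called without mice 2 and 4 too (-1.31, adjusted p = 0.0114).

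Osm encodes oncostatin M, which myeloid cells release and which acts on stromal cells, hepatocytes and endothelium. In Pparg+/- vehicle controls its ratios were 1.36, 1.97 and 1.03, against 0.756, 0.583 and 0.74 with IL-4. With RSG they were 0.77, 1.82 and 0.88 without IL-4 and 0.688, 0.496 and 0.49 with it. All 6 Pparg+/- pairs of arrays went down and neither set overlapped, and the log2 changes were -1.03 ± 0.29 with vehicle (limma adjusted p = 0.0156) and -0.96 with RSG (adjusted p = 0.0271). In Pparg fl/- cells the vehicle ratios went from 1.18, 1.51 and 1.24 to 1.06, 1.07 and 0.965 without overlap, but the change of -0.34 was not called (adjusted p = 0.482). With RSG they went from 1.18, 1.45 and 1.42 to 0.727, 0.498 and 0.895, a change of -0.97 (adjusted p = 0.0229). The averaged change was -0.82 ± 0.14, or 1.77-fold lower (adjusted p = 0.000103).

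The 4 control groups of Osm had mean ratios of 1.16 to 1.45, above all 4 IL-4 groups, of which Pparg fl/- with vehicle was the highest at 1.03 and Pparg+/- with RSG the lowest at 0.558. Neighbours in this order that were compared did not pass the test. Of the single comparisons, that in Pparg+/- cells with vehicle lost its call without mouse 2 (-0.67, adjusted p = 0.126), which had the highest control ratio. That with RSG in Pparg+/- cells lost it without mouse 2 (-0.5, 0.287), 3 (-1.02, 0.0993) or 6 (-0.96, 0.051), and that with RSG in Pparg fl/- cells without mouse 4 (-1.1, 0.0762), 5 (-0.68, 0.278) or 6 (-1.12, 0.0671). Without mice 2 and 4 the averaged change was -0.67 (adjusted p = 0.00353).

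Il15 encodes a cytokine that macrophages present bound to its own receptor chain to NK and T cells. It had the smallest spread of the set. In Pparg+/- cells with vehicle its ratios were 1.43, 1.06 and 1.06 without IL-4 and 0.891, 0.787 and 0.642 with it, without overlap, and the log2 change was -0.61 ± 0.18, or 1.53-fold (limma adjusted p = 0.0252). The Pparg fl/- vehicle arrays read 1.02, 0.98 and 1.09 against 0.644, 1.18 and 0.857, which overlap, and the change was -0.25 (adjusted p = 0.419). The changes with RSG were -0.31 and -0.33. Averaged over genotype and RSG it was -0.37 ± 0.09 (adjusted p = 0.00283), which is 1.3-fold and so under the 1.5-fold rule. The call in Pparg+/- cells rested on every mouse, since it was lost without mouse 1 (-0.58, adjusted p = 0.135), 2 (-0.7, 0.0994) or 3 (-0.56, 0.177), and without the vehicle control array of mouse 1 alone (-0.47, 0.138). Without mice 2 and 4 it was -0.7 (adjusted p = 0.0617), and on log2(ratio + 0.1) it was -0.55, short of 1.5-fold.

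Across all conditions, Il10 had a median ratio of 1.36 (0.957 to 2.17) on the 12 arrays without IL-4 and of 0.656 (0.15 to 1.1) on the 12 with IL-4. Osm had 1.3 (0.77 to 1.97) and 0.733 (0.49 to 1.07), and Il15 had 1.07 (0.98 to 1.43) and 0.868 (0.642 to 1.18). The IL-4 arrays under the lowest array without IL-4 numbered 11 for Il10, 9 for Il15 and 8 for Osm. The log2 ratios of Il10 and Il15 correlated over the 24 arrays (Pearson r 0.816), more than those of Osm with Il10 (0.506) or with Il15 (0.51). These arrays share mice and conditions, so r is only a description of them.

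**Figure D2:**
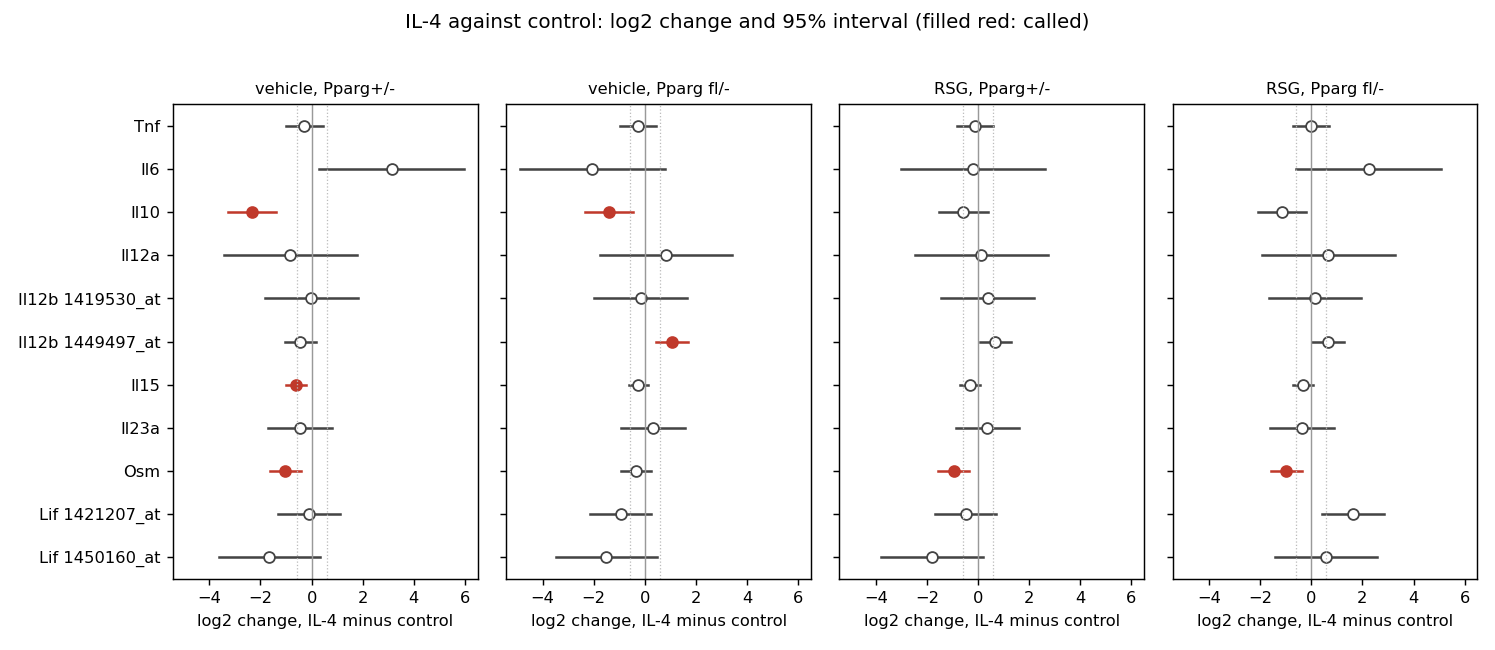
Log2 change with IL-4 (x axis, bars for the confidence interval) of the 11 cytokine probe sets in 4 comparisons, filled where called. The filled points are Il10 in 2 comparisons, Osm in 3, and Il15 and the Il12b probe set 1449497_at in 1 each.

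Of the IL-12 and IL-23 subunits, only the shared p40 gene had a call, and only on 1 of its 2 probe sets. For 1449497_at the Pparg fl/- vehicle ratios were 0.556, 0.802 and 0.757 without IL-4 and 1.29, 1.4 and 1.69 with IL-4, without overlap and higher in all 3 mice. The log2 change was 1.06 ± 0.29, or 2.08-fold (95% interval 0.44 to 1.67, limma adjusted p = 0.0149). In Pparg+/- cells with vehicle the same probe set read 1.0, 1.17 and 0.665 without IL-4 and 0.899, 0.836 and 0.416 with it, lower in 3 of 3 mice, and the change of -0.44 was not called (adjusted p = 0.375). In RSG cultures of Pparg+/- cells it read 0.798, 1.11 and 0.503 without IL-4 and 1.2, 1.23 and 1.23 with it, a change of 0.67 (adjusted p = 0.144). In those of Pparg fl/- cells it read 0.872, 1.0 and 0.723 and then 1.51, 1.41 and 1.15, a change of 0.65 (adjusted p = 0.149), so that neither set overlapped but neither was called. The share of all probe sets that lay higher with IL-4 without overlap was not counted. The second Il12b probe set, 1419530_at, had changes of -0.01, -0.15, 0.39 and 0.15 in the 4 comparisons, and over the 24 arrays the 2 probe sets did not run together (r = -0.0142). The call on 1449497_at was lost without mouse 4 (0.98, adjusted p = 0.0977), 5 (1.18, 0.07) or 6 (1.01, 0.108), and without mice 2 and 4 (0.98, 0.106).

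Il12a, which encodes p35, had no readable pattern. Its ratios ran from 0.0545 to 1.71 among Pparg fl/- vehicle controls alone (1.71, 0.0545 and 1.4) and were 1.24, 0.924 and 0.642 with IL-4. In Pparg+/- cells they were 0.969, 1.03 and 1.16 without IL-4 and 1.11, 2.14 and 0.0857 with it. The averaged IL-4 change was 0.2, with a 95% interval of -1.1 to 1.5 that holds changes of more than 2-fold in either direction. Il23a, which encodes p19, read 1.81, 2.99 and 0.568 in Pparg+/- vehicle controls and 2.12, 0.586 and 0.982 with IL-4. The Pparg fl/- arrays read 0.534, 0.513 and 0.439 and then 0.675, 0.55 and 0.628. The averaged IL-4 change of Il23a was -0.03 (-0.65 to 0.59, adjusted p = 0.951).

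Tnf encodes tumour necrosis factor. Its ratios in Pparg+/- vehicle cells were 0.992, 1.15 and 1.36 without IL-4 and 1.17, 0.543 and 1.35 with IL-4. The Pparg fl/- arrays read 1.49, 0.836 and 1.05 without IL-4 and 0.732, 0.94 and 1.09 with it. The groups overlap throughout, and the averaged IL-4 change was -0.17 with a 95% interval of -0.53 to 0.19 (limma adjusted p = 0.485). For the ratios, a change of 1.5-fold or more in the mean over the 4 conditions lies outside the interval. The ratios do not show whether Tnf stood above background, so this bound does not extend to the amount of its mRNA. The Tnf interval is narrower than those of Il6 and Il12a by far.

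Il6 had the widest spread of the set. The Pparg+/- vehicle controls read 0.0595, 0.117 and 1.03, and the IL-4 arrays 3.2, 1.53 and 0.974. The Pparg fl/- vehicle controls read 0.923, 2.31 and 12.7 and the IL-4 arrays 0.117, 1.58 and 2.08. The change was thus 3.13 ± 1.35 in one genotype (adjusted p = 0.13) and -2.05 in the other (adjusted p = 0.346), neither of them called, and the average was 0.78 with a 95% interval of -0.64 to 2.19. The high control value came from mouse 6. Without that array the change in Pparg fl/- cells was -1.01 ± 1.47.

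Lif, the neighbour of Osm on chromosome 11 in the RefSeq gene table, encodes leukaemia inhibitory factor, which holds stem cells in their state and acts widely on other tissues. On 1421207_at the Pparg+/- vehicle ratios were 1.62, 0.74 and 0.858 without IL-4 and 1.07, 1.26 and 0.632 with it. On 1450160_at they were 0.395, 1.02 and 1.61 without and 0.211, 0.218 and 0.455 with IL-4. The averaged IL-4 change was 0.03 (95% interval -0.58 to 0.63) on the first probe set and -1.09 ± 0.47 on the second (limma adjusted p = 0.0799), so that neither was called. The second read 0.61, 0.293 and 0.365 with IL-4 in Pparg fl/- vehicle cells, where the controls had read 0.573, 3.67 and 0.715. With RSG in Pparg fl/- cells 1421207_at read 1.02, 0.285 and 0.122 without IL-4 and 0.851, 1.28 and 0.979 with it, a change of 1.64 (adjusted p = 0.0596) that was 2.58 and called without mouse 4 (adjusted p = 0.00212). Over the 24 arrays Osm correlated with the 2 Lif probe sets at r = -0.219 and 0.135, and these with each other at 0.499.

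The spread between mice of a group differed widely among the members. It was at least 1 on the log2 scale, the limit used here for a variable probe set, for Il6 (SD 1.74, higher than 98.6% of the probe sets tested), Il12a (1.56, 96.3%), Lif 1450160_at (1.16, 81.4%) and Il12b 1419530_at (1.12, 79.4%). The next below the limit was Lif 1421207_at at 0.738, close to Il23a at 0.735. Il10 (0.563), Tnf (0.431), Il12b 1449497_at (0.37), Osm (0.36) and Il15 (0.221) followed, with Tnf at the 49.9th percentile of all. No member value was at or under 0.02, where the lowest ratio of the table is 0.01. The lowest member ratios were 0.0537 for Il6 and 0.0545 for Il12a. This concerns ratios only. A probe set near background on every array can read near 1, so closeness to the detection floor was not tested. The medians of Il23a (0.616) and Lif 1450160_at (0.531) were not 1, and what they were divided by is not known.

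For comparison, 4 of the 11 member probe sets (36.4%) were variable in this sense, beside 26.3% of all probe sets tested. Cytokines that lymphocytes make and macrophages are not known for, such as Il2, Il5 and Ifng, had 7 of 11 (63.6%), with a median SD of 1.43. The receptors of the members had 4 of 25 (16.0%, median 0.436) and the macrophage markers 1 of 11 (9.09%, median 0.229). The median SD of the members was 0.735. The same 4 variable member probe sets hold the widest ranges within 1 group: 31.4-fold for Il12a, 21.1-fold for Il12b 1419530_at, 17.7-fold for Il6 and 11.8-fold for Lif 1450160_at. The called members all come from the quieter 7, which the test itself favours, since a call depends on the same spread.

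**Figure D3:**
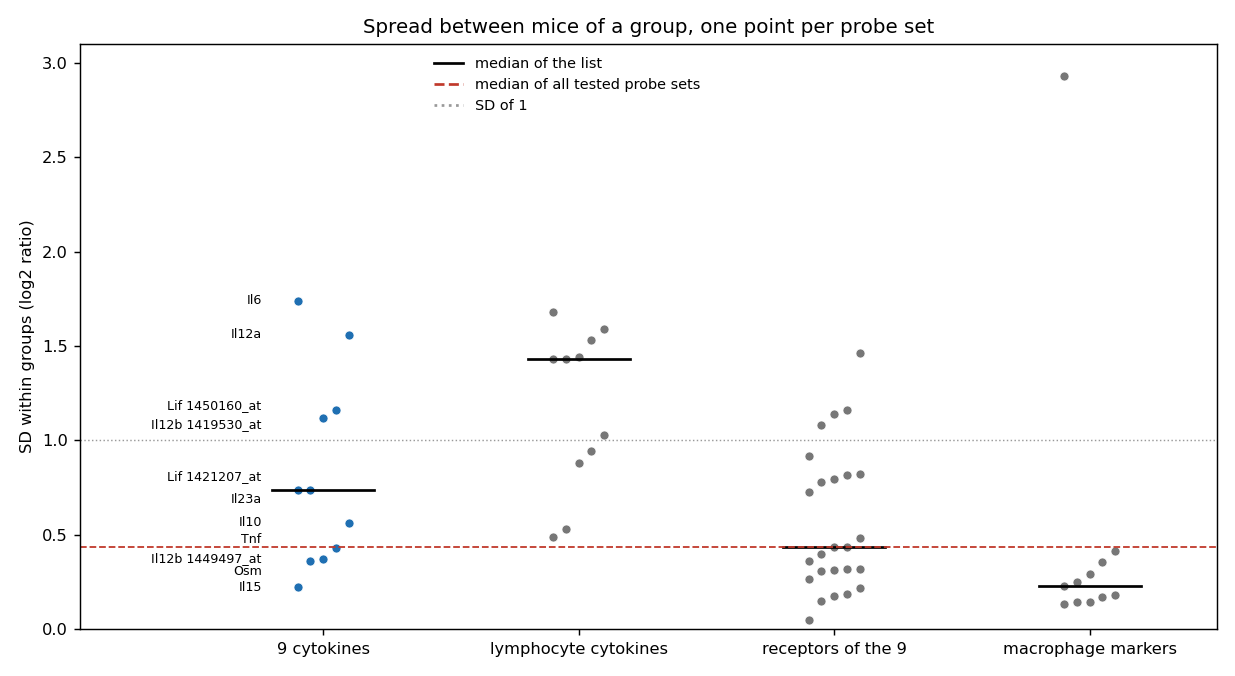
SD within groups (log2) of the 11 cytokine probe sets, with the line at 1 that marks a variable probe set and the reference lists beside them. Il6 (1.74) and Il12a (1.56) stand highest and Il15 (0.221) lowest.

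With RSG no member was called. The question was whether a PPARγ ligand lowers these cytokines in cells with 1 working Pparg allele and not in cells whose last allele is floxed. Each genotype was compared on its own, and a difference between the genotypes in the RSG response was not tested. In limma 0 of 11 were called in any of the 4 comparisons of RSG with vehicle, beside 0.189% of all probe sets. At an unadjusted p under 0.05 were 5 values of 44. No share of all probe sets is given for that threshold, so the count cannot be read as an excess. The methods' t-test with adjustment called 0 of all 43349 probe sets in each of the 4 comparisons, so its count says nothing about the members. Tnf in Pparg+/- controls read 0.513, 0.709 and 0.968 with RSG, each lower than the vehicle culture of the same mouse (0.992, 1.15 and 1.36) and without overlap. The log2 change was -0.71 ± 0.34 (95% interval -1.42 to 0.0, adjusted p = 0.949). How many of all probe sets had no overlap between RSG and vehicle arrays was not counted. In Pparg fl/- controls Tnf read 0.748, 1.72 and 1.02 with RSG and the change was 0.0. With IL-4 it read 0.751, 0.705 and 0.512 with RSG in Pparg+/- cells, a change of -0.55, and 1.01, 1.11 and 1.16 in Pparg fl/- cells, a change of 0.26.

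The largest RSG difference among the members was that of Il6 in Pparg fl/- controls, where RSG arrays read 0.186, 0.0537 and 0.207, all below the vehicle arrays. The log2 change was -4.56 ± 1.35 (unadjusted p = 0.00326, limma adjusted p = 0.918), and -3.52 ± 1.47 without the vehicle array of mouse 6. In Pparg+/- controls it went the other way, with 2.66, 2.17 and 0.365 with RSG and a change of 2.74 (adjusted p = 0.966). Neither was called. Il23a in Pparg+/- controls read 1.05, 0.554 and 0.375 with RSG, a change of -1.27 (adjusted p = 0.931). Lif 1421207_at in Pparg fl/- controls read 1.02, 0.285 and 0.122 with RSG against 0.63, 1.4 and 1.66 with vehicle, a change of -1.79 (unadjusted p = 0.00614, adjusted p = 0.98). In IL-4 cultures of Pparg+/- cells Il10 was 1.38 higher on the log2 scale with RSG (unadjusted p = 0.0064, adjusted p = 0.37), with 0.637, 1.1 and 0.773 against 0.773, 0.265 and 0.15. Il12b 1449497_at read 1.2, 1.23 and 1.23 there with RSG, above all 3 vehicle arrays, a change of 0.84 (adjusted p = 0.434).

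**Figure D4:**
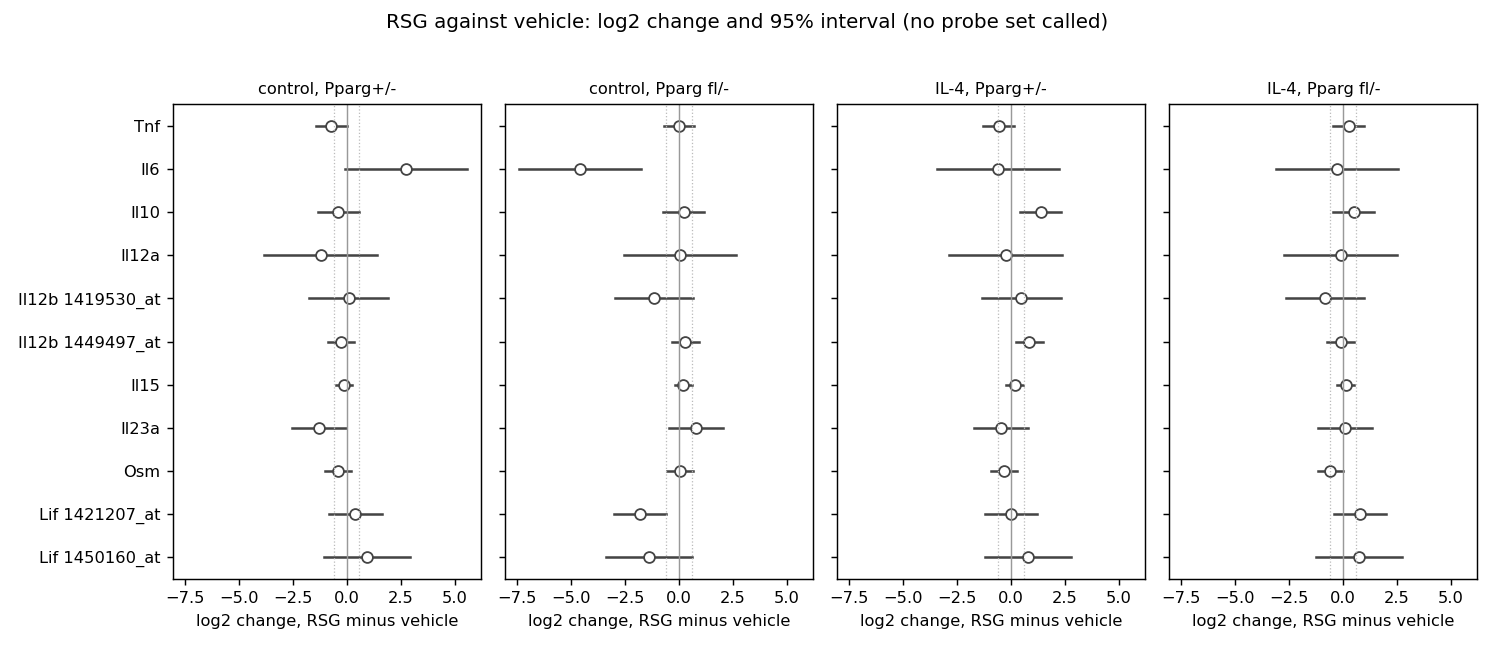
Log2 change with RSG (x axis, bars for the confidence interval) of the 11 cytokine probe sets in the 4 comparisons of RSG with vehicle. No point is filled, since none was called. The Il6 points lie from -4.56 to 2.74 in controls.

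Whether the fall of Il10 with IL-4 was smaller with RSG was tested after the values were seen. In Pparg+/- cells the IL-4 response with RSG minus that with vehicle was 1.77 for Il10 (95% interval 0.43 to 3.1, unadjusted p = 0.0121, limma adjusted p = 1.0), and in Pparg fl/- cells it was 0.27 (-1.06 to 1.6). For Osm it was 0.07 and -0.63 (-1.48 to 0.22). In limma 0 of 11 were called here in either genotype, with 4 of 22 values at an unadjusted p under 0.05, and over all probe sets 1 was called in Pparg+/- cells and 0 in Pparg fl/- cells, with 2006 and 1768 at an unadjusted p under 0.05.

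Between genotypes no member was called either. In limma 0 of 11 were called in the 4 comparisons of Pparg fl/- with Pparg+/- cells, beside 0.508% of all probe sets. At an unadjusted p under 0.05 were 6 values of 44, again with no share of all probe sets to set beside them and so not readable as an excess. The methods' t-test again called 0 of all 43349 probe sets. Il23a read 0.534, 0.513 and 0.439 in Pparg fl/- vehicle controls, all below the 3 Pparg+/- arrays, a difference of -1.56 (adjusted p = 0.461). For Il6 the log2 difference was 3.96 there (adjusted p = 0.431) and -3.33 in RSG controls, in the opposite direction. Lif 1421207_at in RSG controls read 1.02, 0.285 and 0.122 in Pparg fl/- cells against 1.09, 1.2 and 1.8, a difference of -2.02 (adjusted p = 0.306). Without mouse 4 it was -2.83 and called (adjusted p = 0.0216), in the only 1 of 18 alternative settings with a member call between genotypes. Over all probe sets, RSG controls then had 20 called higher and 58 lower in Pparg fl/- cells, where the main fit had 1 and 1. Tnf with IL-4 and RSG was 0.75 higher in Pparg fl/- cells without overlap (adjusted p = 0.409), and Il12b 1449497_at with IL-4 and vehicle was 1.09 higher, also without overlap (adjusted p = 0.252). How many of all probe sets separated the genotypes without overlap was not counted.

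The genotypes were also compared directly for their response to IL-4, and 0 of 11 were called in limma, beside 0.00461% of all probe sets. At an unadjusted p under 0.05 were 3 of 22 values, without a share of all probe sets for that threshold, so this count too cannot be read as an excess. With vehicle the difference (Pparg fl/- minus Pparg+/-) was 0.92 for Il10 (95% interval -0.41 to 2.25), 0.69 for Osm (-0.16 to 1.54) and 0.37 for Il15 (-0.18 to 0.91). Osm and Il15 were called with vehicle in Pparg+/- cells and not in Pparg fl/- cells, and a difference between the genotypes was thus not shown for either. For Il12b 1449497_at, which moved in opposite directions, it was 1.5 ± 0.42 (0.62 to 2.37, unadjusted p = 0.00199, adjusted p = 0.805).

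Of 12 receptor genes for these cytokines tested, 1 was higher and 2 were lower in the averaged IL-4 contrast, where 18.5% of all probe sets were called and 2 of the 11 member probe sets (Il10 and Osm). Each list gene is counted on its probe set with the smallest SD within groups, so list counts and this share are not alike. Il6st, which encodes gp130, the signalling chain shared by the receptors of IL-6, oncostatin M and LIF, read 0.414, 0.286 and 0.352 in Pparg+/- vehicle controls and 1.58, 1.48 and 1.63 with IL-4. It rose in all 4 comparisons, and in the average on 4 of 4 probe sets, by 4.27-fold on this one (limma adjusted p = 6.02e-12). Lifr, the LIF receptor chain, fell on 1454984_at from 3.37, 1.69 and 1.07 to 0.526, 0.658 and 0.676 in the same groups, and 2.18-fold on average. Of its other 2 probe sets 1 was called (-1.98) and 1 was not (-0.57). Osmr, the oncostatin M receptor chain, fell 3.74-fold on average on 1418674_at, called in Pparg fl/- cells with vehicle (-2.77) and Pparg+/- cells with RSG (-2.9) but not in the other 2 comparisons, and its other 2 probe sets were not called (0.48 and 0.73). Il6ra, the chain that binds IL-6, was called on 1422270_a_at in Pparg+/- cells with vehicle (-0.64) and not on average (-0.42). Its other probe set was called in that comparison (-0.97) and on average (-0.75).

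Below the receptors, 3 of 9 JAK-STAT genes rose and 2 fell on average, where 18.5% of all probe sets were called in either direction. Socs1, an inhibitor of JAK kinases that IL-4 is known to induce, rose 9.09-fold, and Jak2 rose 2.31-fold. Socs3, the inhibitor that limits gp130 signalling, fell 3.87-fold, and all 3 of its probe sets fell. Stat4, the transcription factor through which IL-12 acts, fell 6.9-fold, from 2.24, 2.15 and 2.36 to 0.0644, 0.133 and 0.0977 in Pparg+/- vehicle cells. Of 16 regulators of cytokine genes 6 rose and 2 fell on average, beside the same 18.5% of all probe sets. Maf, known as an activator of Il10, fell 8.18-fold on 1437473_at, which read 1.98, 1.85 and 1.69 in Pparg+/- vehicle controls and 0.308, 0.224 and 0.255 with IL-4. All 6 of its probe sets fell on average, by log2 changes of -3.08 to -2.13. Nfkbiz, an IκB-type protein needed for Il6 and Il12b induction, fell 4.86-fold. Dusp1, a MAP kinase phosphatase, rose 2.77-fold and Rel, the NF-kB subunit c-Rel, rose 2.55-fold.

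Of 13 related cytokines tested 2 rose and 3 fell on average, beside 18.5% of all probe sets. Ebi3, the p40-like chain of IL-27, fell 5.0-fold, from 2.78, 1.42 and 1.84 to 0.456, 0.307 and 0.268 in Pparg+/- vehicle cells, without overlap. Il7, a survival factor of lymphocytes, rose 3.67-fold, and Clcf1, a gp130 cytokine, rose 2.76-fold on 1437271_at. The other 2 probe sets of Clcf1 rose on average as well, by log2 changes of 2.66 and 1.09. Csf1, the gene of M-CSF itself, fell 1.99-fold on 1448914_a_at, and 2 of its 4 probe sets were called. Of the 10 lymphocyte cytokines tested, limma called 0 in each of the 4 IL-4 comparisons and 0 on average, with 0, 0, 0, 1 and 1 at an unadjusted p under 0.05.

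**Figure D5:**
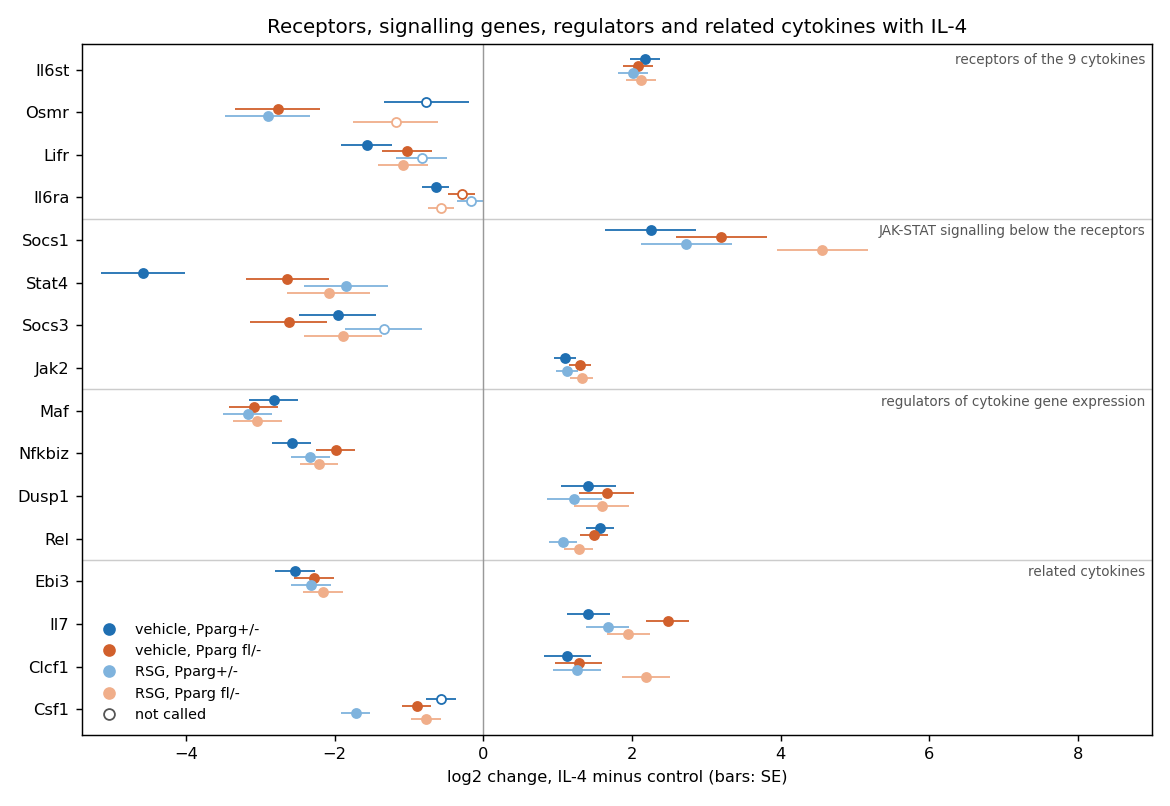
Log2 change with IL-4 (x axis, bars for SE) of the named receptors, signalling genes, regulators and related cytokines in the 4 IL-4 comparisons, open where not called. Il6st lies near 2 in all 4 comparisons and Maf near -3.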

How the data were processed

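The deposited values are expression ratios. In GeneSpring 7.3 the authors computed GC-RMA signals, scaled each array to its 50th percentile and divided every probe set by its own median. A last division by the vehicle control, given in the methods, is not seen in the values. The submitters' processing notes name GCOS, with no version. The lowest ratio was 0.01 (124 values), and array medians ran from 0.906 to 1.08. Precision is limited by how few arrays a group has.

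Ratios were log2 transformed with no further scaling. The 64 control probe sets and 1688 that were not at or above the array median on at least 3 arrays were removed, which left 43349. Probe sets were named from the platform annotation, with symbols updated by gene identifier: 34945 probe sets had 1 symbol, 932 several and 9160 none. limma 3.58.1 in R 4.3.3 was fitted with 1 mean per group over 24 arrays with a trend of variance on mean, and the Benjamini-Hochberg adjustment ran over all probe sets tested. Errors after ± are SE for log2 changes and SD for ratios, n = 3 mice. The test was tried on simulated data.

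The members and lists were chosen with earlier results of these data known. Every member probe set is named, with up to 4 genes per list called in any IL-4 comparison, taken by the size of the averaged change. In the lists 1 probe set stands for a gene, that with the smallest SD within groups. Some genes of the lists are not reported here. Arrays with the same number come from the same mouse, by the labels, although their residuals correlated little (median r 0.0138, from -0.0567 to 0.0442). Alternatives were other scalings, filters, floors and pseudocounts, limma without the trend, the methods' t-test, the mouse as a block and leaving out mice or arrays. The IL-4 by RSG comparison and the settings without mice 2 and 4 and without the vehicle control array of mouse 6 were added after the data were seen. So was the NF-kB consensus, in place of a wider form, GGG and CC with any 5 bases between. That form is held by 50.8% of all promoters and by 4 of the 6 member promoters.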

Additional observations from a re-analysis of the deposited data

Results flagged for a closer look

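The Il12b probe set 1449497_at differed in opposite directions in 2 pairs of groups, in every mouse. With vehicle it was lower with IL-4 in all 3 Pparg+/- mice and higher in all 3 Pparg fl/- mice, and the mean log2 changes differed by 1.5 (limma adjusted p = 0.805). Within Pparg+/- cells the reading was lower with RSG in all 3 mice without IL-4 and higher with RSG in all 3 with IL-4, a difference of 1.11. Read the other way, as the IL-4 response with vehicle and with RSG in the same cells, the difference is the same 1.11 ± 0.42 (SE, unadjusted p = 0.0152, limma adjusted p = 1.0, tested after the pattern was seen). The other Il12b probe set, 1419530_at, had IL-4 changes of -0.01 and -0.15 with vehicle in the same 2 genotypes.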

How the results depend on the processing

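With 3 mice per group, the spread of Il6 and Il12a leaves intervals too wide to show changes of a few fold. Other scalings, floors, filters and limma without the trend left the counts of members called within 1.5 times the reported ones, as did the mouse as a replicate block, which gave 3, 2, 1 and 1 calls in the 4 IL-4 comparisons and changed no call. The methods' t-test with adjustment called 0 members in each of the 4, beside 7.88%, 4.35%, 8.46% and 5.96% of all probe sets, and gave no value for the difference of the IL-4 effect by genotype or for the average. Leaving out 1 mouse or array gave 1 to 3 calls in Pparg+/- cells with vehicle, 0 to 2 in Pparg fl/- cells with vehicle, 0 to 1 in Pparg+/- cells with RSG, 0 to 3 in Pparg fl/- cells with RSG and 0 to 1 between genotypes (Lif 1421207_at without mouse 4). Without mice 2 and 4 the 4 IL-4 counts were 0, 0, 0 and 2, the last from Lif 1421207_at and Osm. Averaged IL-4 changes near 0 turned sign: Il12a between -0.4 and 0.77, Il12b 1419530_at between -0.2 and 0.5, Il23a between -0.34 and 0.22 and Lif 1421207_at between -0.11 and 0.23 with single mice or arrays left out. Il23a was 0.12 without mice 2 and 4, where Il12b 1419530_at was called (0.79). Lif 1421207_at was -0.06 with array medians centred, -0.06 after quantile normalization and -0.02 on log2(ratio + 0.1). The cause was not tested.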

Other observations

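Over the 24 arrays the genes most like Il10 were Thbs2, a secreted matrix protein (Pearson r of log2 ratios 0.902), Amot (0.873) and Dynlt1f (0.87), with averaged IL-4 log2 changes of -3.79, -3.1 and -1.02. Those most like Osm were Snrpg, a splicing protein (0.864), Ap2s1, an adaptor of endocytosis (0.858) and Ifi27 (0.854), with averaged changes of -0.45, -0.3 and -0.38. The arrays share mice and conditions, so these values are descriptions.

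Of 3 Lyz1 probe sets, 2 showed the same mice apart as Lyz2. On 1436996_x_at mouse 2 lay between 8.08 and 9.79 and mouse 4 between 7.19 and 10.1, while mice 1, 3, 5 and 6 did not exceed 1.49. On 1450822_at the arrays of all 6 mice lay between 0.696 and 2.72. Mouse 2 is Pparg+/- and mouse 4 Pparg fl/-, so each genotype holds 1 of them.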
